A study of Mus musculus with 4 samples.

Results

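The S100 genes encode small calcium-binding proteins, and 10 of them are described here in cultured mouse epidermal stem cells exposed to a plant polysaccharide. The members were taken by gene symbol from the deposited count table: S100a1, S100a3, S100a4, S100a6, S100a8, S100a9, S100a10, S100a11, S100a14 and S100a16, 10 of 54532 genes. Of these, 9 passed the filter on low counts and were tested with 14056 genes in all, and S100a4 did not pass it. Epidermal stem cells, the keratinocyte progenitors of skin, came from C57BL/6 mice and were grown in EpiLife medium with the HKGS supplement. The treated cells had 30 μg/mL ALP for 48 h, where ALP stands, going by the title of the series, for the polysaccharide of burdock (Arctium lappa). The control cells had 0.06% DMSO for 48 h, and strain, medium and time were shared by both groups. The labels used here do not say whether the ALP cells also had DMSO. If they had none, the presence of ALP and the absence of DMSO cannot be told apart. Each group had 2 RNA sequencing libraries, called A and B here as names only. The labels used here do not say whether the libraries came from separate cultures, so p-values cover the spread between these libraries, which may be technical.

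S100 proteins are dimers with paired EF-hand loops, the helix-loop-helix fold that holds calcium, and most act by binding other proteins when calcium rises. In skin, S100a10 and S100a11 bind annexins at membranes, S100a6 binds cytoskeletal and ubiquitin ligase proteins, and S100a8 with S100a9 forms calprotectin, an antimicrobial complex made by neutrophils and by activated keratinocytes. Most S100 genes lie in or beside the epidermal differentiation complex, a gene cluster for proteins of the cornified layer.

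After ALP, 4 abundant members rose and the calprotectin pair fell. S100a10, S100a11, S100a6 and S100a14 rose 1.56-, 1.53-, 1.35- and 1.28-fold, and S100a8 and S100a9 fell 2.504- and 2.66-fold (n = 2 libraries per group). Called here means an adjusted p under 0.05 in edgeR's quasi-likelihood test, with Benjamini-Hochberg adjustment over all tested genes. In either direction 6 of the 9 tested members were called, where 29.8% of all tested genes were. Called higher were 4 members, against 17.7% of all tested genes, and called lower were 2, against 12.1%. The median log2 fold change was 0.21 over the tested members and -0.0029 over all tested genes. DESeq2's Wald test also gave 4 higher and 2 lower members, where it called 17.1% of genes higher and 12.5% lower, and so did limma-voom, with 18.7% and 15.1%. Without control A, edgeR called 0 of the members and 0 genes in the table (3311 genes had an unadjusted p under 0.05), and without control B it called 0 members and 197 genes (4044 with an unadjusted p under 0.05). The libraries of the groups did not overlap for 7 of the 9 tested members, 5 higher and 2 lower in ALP, and for 75.7% of all tested genes (38.2% higher and 37.5% lower).

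Library totals lay between 15766244 and 17430345 counts. The ALP libraries differed from each other more than the controls did, with a chi-square per degree of freedom of 24.1 against 6.40. The keratinocyte markers were abundant: Krt14, a keratin of basal cells, had 14306 and 11156 CPM (counts scaled to 1 common library total, with TMM factors) in ALP A and ALP B and 18957 and 19126 CPM in control A and control B, and was called lower. Krt10, a keratin of differentiating cells, had 149.96 and 5.04 CPM in ALP and 668 and 544 CPM in control, and Krt1 had 662 and 19.7 against 2507 and 2084 CPM. ALP B was the lowest library for each of these keratins. Neither Krt10 nor Krt1 was called (edgeR, adjusted p = 0.126 and 0.167).

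Levels between members are compared per gene length, as CPM per kilobase. The deposited length need not be that of the main transcript, and order, ranks, shares and ratios between genes depend on it. It was 511 bases for S100a11, 1212 for S100a10, 584 for S100a4 and 5660 for S100a3. In plain CPM the control means were 996 for S100a11 and 754 for S100a10, and 0.283 for S100a4 and 1.22 for S100a3. S100a11 had the highest level, 1808 and 2089 CPM per kilobase in the control libraries, where it ranked 11 and 10 among all genes of the table. S100a10 followed with 561 and 684, S100a6 with 281 and 308, S100a14 with 187 and 187 and S100a16 with 98.7 and 98.9. These 5 members formed the upper group, and the mean of S100a16 was 5.298 times that of the next member. S100a8 had 20.4 and 16.9 CPM per kilobase, S100a9 19.2 and 14.3 and S100a1 3.99 and 2.88. The levels of S100a4, at 0.871 and 0.0977, and S100a3, at 0.2698 and 0.161, rested on 27 counts or fewer per library. In control, neighbours in this order did not overlap, except S100a8 with S100a9 and S100a4 with S100a3, which do not differ beyond their spread. The group means had the same order in ALP.

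**Figure D1:**
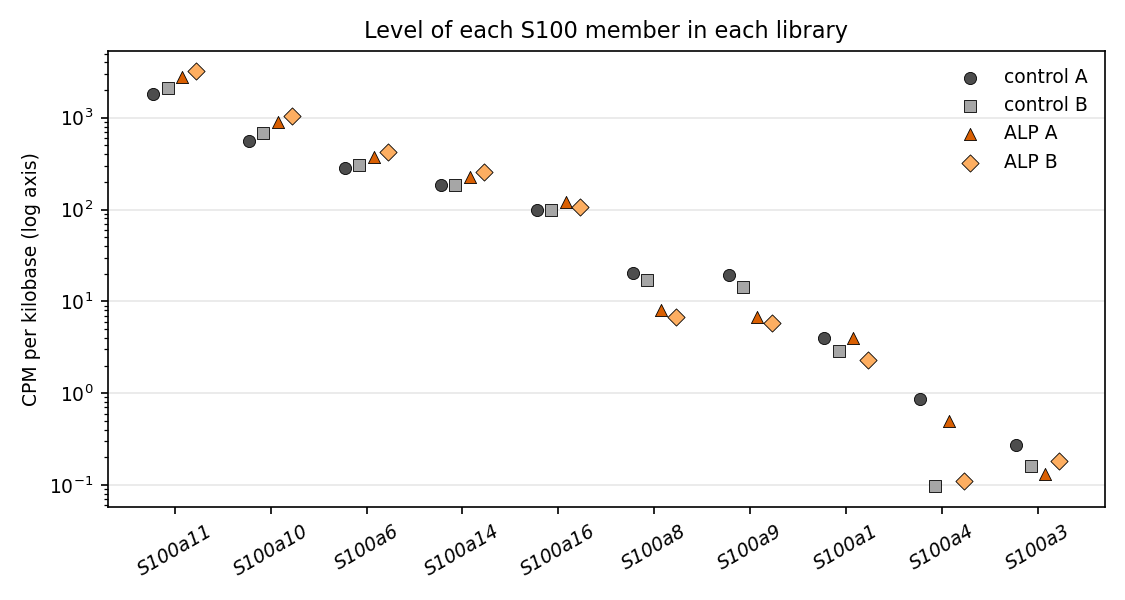
Level of each S100 member in CPM per kilobase (log axis), with a point for each of the 4 libraries and members ordered by control mean. The leading 5 members lie at 98.7 CPM per kilobase or above, and for S100a8 and S100a9 both ALP points lie below both control points.

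The largest estimated increases were those of S100a10 and S100a11, though their ranges of ± SE overlapped that of S100a6. S100a10, also called p11, pairs with annexin A2, and its EF-hands no longer bind calcium. Its gene (ENSMUSG00000041959, chromosome 3, 93555080 to 93564643, plus strand, GRCm38) had 888 and 1050.0 CPM per kilobase in ALP A and ALP B and 561 and 684 in control A and control B. Both ALP libraries were above both controls, with means of 969 ± 114 and 622 ± 87.2 (SD, n = 2). The log2 fold change was 0.64 ± 0.14 (SE, edgeR, adjusted p = 0.0283).

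S100a11, or calgizzarin, binds annexin A1 and is found in the cornified envelope. The gene (ENSMUSG00000027907, chromosome 3, 93520488 to 93526287, plus strand) had 2761 and 3189.8 CPM per kilobase in ALP against 1808 and 2089 in control. The groups did not overlap, and S100a11 ranked 8 and 5 among all genes in the ALP libraries. Its log2 fold change was 0.61 ± 0.12 (edgeR, adjusted p = 0.0238).

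S100a6, or calcyclin, is known from proliferating and epithelial cells. The gene (ENSMUSG00000001025, chromosome 3, 90612882 to 90624181, plus strand) had 374 and 422 CPM per kilobase in ALP and 281 and 308 in control. Again the ALP libraries lay above the controls, and the log2 fold change was 0.44 ± 0.11 (edgeR, adjusted p = 0.0346). S100a14, an epithelial member (ENSMUSG00000042306, chromosome 3, 90526856 to 90528837, plus strand), had 225 and 255 CPM per kilobase in ALP and 187 and 187 in control. Its groups did not overlap either, with a log2 fold change of 0.36 ± 0.10 (edgeR, adjusted p = 0.0459). This call was lost with RLE scaling (adjusted p = 0.0521) and with upper-quartile scaling (adjusted p = 0.0604).

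In each of these 4 genes ALP B was above ALP A. The log2 difference from the control mean was 0.52 in ALP A and 0.76 in ALP B for S100a10, and 0.51 in ALP A and 0.71 in ALP B for S100a11. For S100a6 it was 0.35 in ALP A and 0.52 in ALP B, and for S100a14 0.26 in ALP A and 0.45 in ALP B. ALP B was also the library with the least Krt1, Krt10 and Krt14, and the part of that in these results was not tested.

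Calprotectin went the other way. S100a8, its smaller subunit (ENSMUSG00000056054, chromosome 3, 90668978 to 90670035, plus strand), had 97 and 73 counts in ALP and 250 and 206 in control, or 8.08 and 6.79 against 20.4 and 16.9 CPM per kilobase. Both ALP libraries were below both controls, and the log2 fold change was -1.32 ± 0.20 (edgeR, adjusted p = 0.0161).

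S100a9, the subunit with the longer tail, lies in the same block on the opposite strand (ENSMUSG00000056071, chromosome 3, 90692632 to 90695721, minus strand). It had 61 and 47 counts in ALP and 177 and 131 in control, or 6.75 and 5.81 against 19.2 and 14.3 CPM per kilobase. The groups did not overlap, and the log2 fold change was -1.41 ± 0.25 (edgeR, adjusted p = 0.0182). For both subunits ALP B was the lower ALP library, with log2 differences from the control mean of -1.197 in ALP A and -1.44 in ALP B for S100a8. Differentiating keratinocyte markers, summed, were 90.01 to 1046 CPM in ALP and 3211 to 3879 CPM in control, with ALP B lowest. The part of this in the S100a8 and S100a9 results was not tested.

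Myeloid cells are another source of calprotectin, and their part in the S100a8 and S100a9 results was not tested. Ptprc, the pan-leukocyte gene, had 1 count in control A and 0 in the other libraries, and 4 of 12 myeloid markers (Mpo, Csf3r, Ly6g and Elane) had 0 counts throughout. The list summed to 5.29 to 7.57 CPM in ALP and 9.84 to 10.5 in control. Most of that was Cd68, a lysosomal gene that other cells share, at 6.93 and 5.04 CPM in ALP and 9.104 and 9.24 in control (edgeR, adjusted p = 0.0837). In bulk RNA, fewer cells of a type and less RNA per cell cannot be told apart.

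The other tested members were not called. S100a16, an epithelial member (ENSMUSG00000074457, chromosome 3, 90537254 to 90543151, plus strand), had 121 and 107 CPM per kilobase in ALP against 98.7 and 98.9 in control. The groups did not overlap, but the log2 difference of 0.21 ± 0.10 missed the threshold (edgeR, adjusted p = 0.151). It was 0.31 without ALP B (edgeR, adjusted p = 0.0173) and 0.11 without ALP A (adjusted p = 0.349). Fits without an ALP library, here and in what follows, take their spread from the 2 controls alone, which differed less from each other than the ALP libraries did. S100a1, known from heart and skeletal muscle (ENSMUSG00000044080, chromosome 3, 90511034 to 90514392, minus strand), had 48 and 25 counts in ALP and 49 and 35 in control. Its groups overlapped, and the log2 difference of -0.11 ± 0.38 changed sign when ALP B (0.23) or control A (0.13) was left out.

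S100a3, a gene of the hair cuticle (ENSMUSG00000001021, chromosome 3, 90560578 to 90602702, plus strand), had 13 and 16 counts in ALP and 27 and 16 in control. The groups overlapped at a log2 difference of -0.46 ± 0.45 (edgeR, adjusted p = 0.463). S100a4, a marker of fibroblasts and motile cells (ENSMUSG00000001020, chromosome 3, 90603771 to 90606045, plus strand), had 5 and 1 counts in ALP and 9 and 1 in control. Over both libraries of a group this was 0.181 CPM in ALP (exact Poisson 95% interval 0.0663 to 0.393) and 0.288 CPM in control (0.138 to 0.529), counting error only. The intervals overlap, and a difference was not detectable at this depth. The exons of S100a4 share 51.7% of their bases with Gm42674 on the same strand, which had 0 counts. How reads in the shared bases were counted was not examined, so the level of S100a4 may be an undercount.

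**Figure D2:**
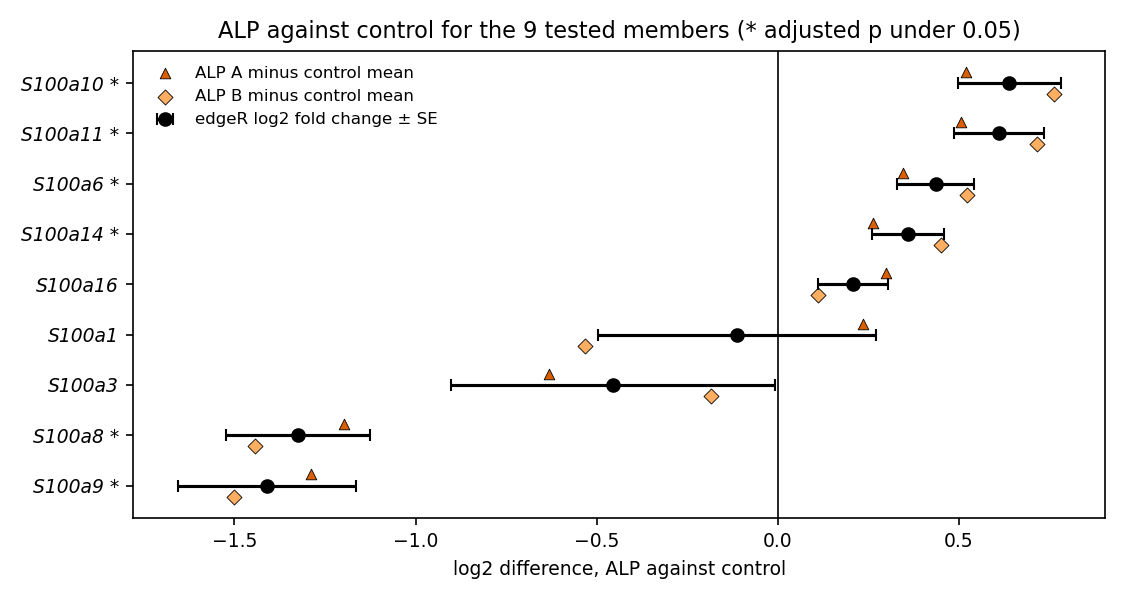
Log2 difference of ALP against control for the 9 tested members: edgeR's estimate with its standard error (black) and each ALP library minus the control mean (orange, log2 CPM with 0.5 counts added). The 6 called members, marked by stars, have both ALP libraries on 1 side of 0. So do S100a3 and S100a16, which were not called, and S100a1 has them on opposite sides.

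The family's summed level was higher in ALP while its calprotectin part was smaller. The 10 members summed to 4389 and 5039.7 CPM per kilobase in ALP and 2980.2 and 3401 in control, a ratio of means of 1.477. S100a11 made up 61.04% ± 0.532 of the sum in control and 63.1% ± 0.268 in ALP (SD, n = 2). S100a8 and S100a9 together summed to 14.8 and 12.6 CPM per kilobase in ALP and 39.5 and 31.2 in control. These sums and the ratios that follow are described without a test. A two-sided permutation test of 2 against 2 libraries gives no p below 0.333, and no model was fitted to them.

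The ratio of S100a8 to S100a9 was 1.196 and 1.17 in ALP and 1.06 and 1.18 in control. The ratio of S100a11 to its neighbour S100a10 was 3.11 and 3.04 in ALP and 3.22 and 3.05 in control. For the calprotectin subunits the ranges overlapped, while for S100a11 over S100a10 ALP A lay between the controls and ALP B just below them. S100a10 over Anxa2, the gene of annexin A2, was 1.17 and 1.29 in ALP and 0.786 and 0.935 in control. S100a11 over Anxa1 was 5.28 and 5.71 in ALP and 4.28 and 4.46 in control, and both annexin ratios were without overlap. Lack of overlap was common, at 75.7% of all tested genes taken singly, which is no reference for ratios. S100a10 and S100a11 were already called higher and Anxa2 and Anxa1 were not called, so these ratios are no separate support.

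**Figure D3:**
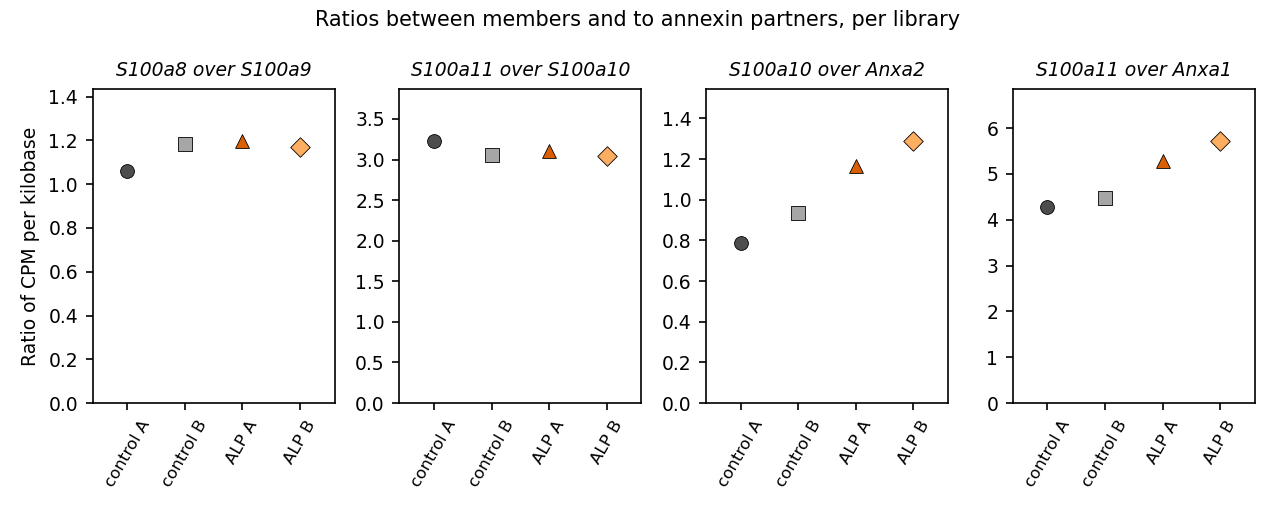
Ratios of CPM per kilobase in each library: S100a8 over S100a9, S100a11 over S100a10, S100a10 over Anxa2 and S100a11 over Anxa1, each axis starting at 0. The groups overlap in the ratios between members, and both ALP points lie above both control points in the annexin ratios.

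Because S100a8 fell with S100a9 and S100a6 rose with S100a11, the sequences before these genes are shown. They come from RefSeq (GRCm38.p6), hold up to 250 bases before the RefSeq start, and end where GENCODE places the first exon of the gene. RefSeq windows were found for 8 of the 10 members, 12 windows in all. S100a10 and S100a14, both called higher, had no window, and S100a3 and S100a16 had multiple windows each. Capitals mark matches on either strand to AP-1 (TGANTCA), C/EBP (TTGCNNAA), the TATA box (TATAAA) and the GC box (GGGCGG), and an NF-kB motif was searched as well. The windows are chr3:90668821-90668977 (plus strand) for S100a8, chr3:90695722-90695971 (minus strand) for S100a9, chr3:90612644-90612881 (plus strand) for S100a6 and chr3:93520246-93520487 (plus strand) for S100a11.
S100a8: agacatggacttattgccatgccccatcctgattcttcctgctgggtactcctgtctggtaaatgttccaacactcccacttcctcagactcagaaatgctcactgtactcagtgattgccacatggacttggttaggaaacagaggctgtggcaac
S100a9: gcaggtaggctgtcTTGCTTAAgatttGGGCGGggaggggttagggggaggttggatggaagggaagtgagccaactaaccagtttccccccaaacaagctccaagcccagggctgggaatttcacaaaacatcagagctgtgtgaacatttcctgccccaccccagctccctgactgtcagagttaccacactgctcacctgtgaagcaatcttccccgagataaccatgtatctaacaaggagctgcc
S100a6: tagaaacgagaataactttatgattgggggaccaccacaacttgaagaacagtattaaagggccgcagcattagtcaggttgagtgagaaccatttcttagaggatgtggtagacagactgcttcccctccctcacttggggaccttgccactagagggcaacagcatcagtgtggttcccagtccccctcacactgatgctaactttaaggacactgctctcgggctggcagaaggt
S100a11: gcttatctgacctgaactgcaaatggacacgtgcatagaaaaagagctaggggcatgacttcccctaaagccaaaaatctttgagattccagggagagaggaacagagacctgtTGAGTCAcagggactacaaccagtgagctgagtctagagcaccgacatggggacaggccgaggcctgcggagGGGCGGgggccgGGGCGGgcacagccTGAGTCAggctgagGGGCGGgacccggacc
The S100a11 window held 2 copies of TGAGTCA, starting at positions -136 and -38 from the RefSeq start, and 3 GC boxes. The S100a9 window held TTGCTTAA at position -236 and a GC box at position -223, and the printed S100a8 and S100a6 windows held no match. The full S100a8 window of 250 bases held 1 TATA box, in the part that is not printed. Of 32851 RefSeq windows of 250 bases, 6.75% held the AP-1 letters, 9.56% C/EBP, 4.65% NF-kB, 12.4% the TATA box and 32.7% the GC box. Among the 12 full member windows these were 2, 1, 0, 3 and 4, which are counts of windows and not of members. The AP-1 matches lay in windows of S100a11 and of S100a16, which was not called. A match describes letters only.

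All 10 members lie on chromosome 3 within 3054 kb. A block from S100a1 to S100a9 spans 185 kb and holds 8 of them, and S100a11 and S100a10 lie together in 44.2 kb at the other end. Between lie 102 other genes of the table, including Lor, the Sprr genes and Flg. Of these, 35 were tested, 23 were called lower and 3 higher, with a median log2 fold change of -1.94. Over all tested genes 12.1% were called lower and 17.7% higher. Some of the lower genes (Flg, Hrnr, Rptn and several genes of the Lce family) met the filter on low counts in both libraries only in control. Sprr2k, called higher, did so only in ALP. The direction of such genes was tied to their being tested, and the counts and the median depend on it. The increases of S100a11 and S100a10 thus lay beside a stretch where most tested genes fell, and S100a14 and S100a6, which rose, share the block of S100a8 and S100a9. Counts of close paralogs in that stretch are uncertain. The stretch was chosen with results known.

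**Figure D4:**
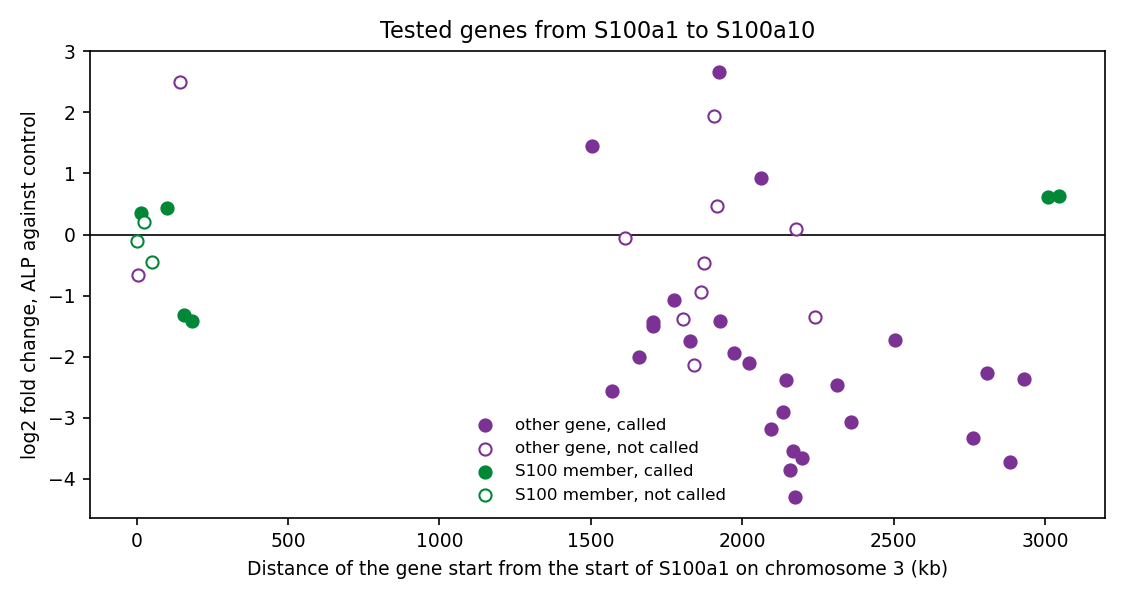
Log2 fold change of the tested genes from S100a1 to S100a10 against the distance of each gene's start from that of S100a1 (kb). Green points are S100 members and purple points other genes, filled where called, and S100a11 and S100a10 stand above 0 to the right of the mostly negative purple points.

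The fused-type S100 genes join an S100 domain to long repeats and encode structural proteins of the cornified layer and hair. Of 7 such genes, 4 were tested and all 4 were called lower by edgeR (3 by DESeq2), with a median log2 fold change of -2.85. Flg, Hrnr and Rptn met the filter on low counts in both libraries only in control, the group where they were higher. Their being tested thus depended on that direction, and 4 of 4 is no independent support for it. Over all tested genes edgeR called 12.1% lower. Tchh (trichohyalin) had 59.1 and 13.2 CPM in ALP and 197 and 177 in control, a log2 fold change of -2.37 ± 0.63. Flg (filaggrin) had 0.925 and 0.129 against 6.33 and 4.73 CPM (-3.33 ± 0.63). Hrnr (hornerin) had 1.21 and 0.194 against 3.73 and 3.25 CPM (-2.26 ± 0.65), and Rptn (repetin) 0.578 and 0 against 4.13 and 3.99 CPM (-3.72 ± 0.79). All 4 were lower in ALP B than in ALP A, and the estimates moved with the library left out. Without ALP A and without ALP B they were -3.83 and -1.65 for Tchh, -5.35 and -2.56 for Flg, and -4.13 and -1.51 for Hrnr. For Rptn they were -9.11 and -2.79, the first against 0 counts in ALP B and therefore dependent on the prior count. Rptn was the gene DESeq2 did not call (adjusted p = 0.129).

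Of 10 tested annexins, 3 were called higher and 1 lower, with a median of 0.14. Over all tested genes 17.7% were called higher and 12.1% lower by edgeR, the background for this and every list below. Anxa11 rose by 1.23 ± 0.14, from 16.6 and 19.8 CPM in control to 39.9 and 45.3 in ALP. Anxa3 rose by 0.79 ± 0.15 and Anxa5 by 0.54 ± 0.13, and Anxa8 fell by 0.72 ± 0.13. The partners of the leading S100 members were not called: Anxa2 differed by 0.13 ± 0.10 (edgeR, adjusted p = 0.350) and Anxa1 by 0.28 ± 0.10 (edgeR, adjusted p = 0.0860).

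Of 14 tested intracellular partners of S100 proteins, 4 were called higher and 3 lower (17.7% and 12.1% over all tested genes). Cacybp, which encodes the calcyclin-binding protein that S100a6 binds, rose from 75.7 and 79.8 to 106 and 125 CPM (0.57 ± 0.11). S100a6 over Cacybp, per length, was 8.47 and 8.05 in ALP and 8.86 and 9.22 in control, lower in ALP without overlap. Ppp5c, a phosphatase gene, rose by 0.57 ± 0.09, Mdm2, the gene of a p53 ubiquitin ligase, by 0.65 ± 0.11, and Ppfibp1, a liprin gene, by 0.47 ± 0.12. Trpv6, a calcium channel gene whose product needs S100a10 with annexin A2 at the membrane, fell from 6.503 and 5.19 to 2.02 and 0.904 CPM (-1.98 ± 0.40). Dlc1 fell by 0.65 ± 0.14 and Plgrkt, a plasminogen receptor gene, by 0.55 ± 0.14. Ahnak, a scaffold for S100a10 and annexin A2, differed by 0.21 ± 0.10 and was not called (edgeR, adjusted p = 0.153).

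Of 8 tested receptor genes for secreted S100 proteins, 2 were called higher and 0 lower by edgeR (0 lower by DESeq2 and limma-voom, 4 lower without ALP A, 0 without ALP B). Mcam, which encodes a calprotectin receptor, rose from 62.3 and 115 to 205 and 259 CPM (1.39 ± 0.30). Cd14, a co-receptor gene, rose from 0.679 and 1.03 to 2.60 and 3.36 CPM (1.79 ± 0.37). Bsg (basigin) had 379.7 and 341 CPM in ALP and 422 and 419 in control, Nptn (neuroplastin) 141 and 125 and 176 and 159, and Alcam 54.1 and 60.6 and 53.9 and 51.2, and none of these was called. Ager, the gene of the receptor RAGE, and Tlr4 were at most 0.848 CPM in any library and were not called.

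Of 15 other tested EF-hand genes, 6 were called higher and 3 lower (17.7% and 12.1% over all tested genes), with a median of 0.18. Capn2, a calpain gene, rose by 1.18 ± 0.16, Calm3, a calmodulin gene, by 0.48 ± 0.09, and Rcn1, a reticulocalbin gene, by 0.36 ± 0.08. Called lower were Sdf4, Chp1 and Calm4, a calmodulin-like gene of skin, which fell from 48.1 and 34.9 to 8.78 and 0.904 CPM (-3.07 ± 0.79, or -5.52 without ALP A and -2.23 without ALP B). DESeq2 did not call Calm4 (adjusted p = 0.0622).

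Genes listed with calprotectin as alarmins or as markers of activated keratinocytes did not all move with it. Of 8 tested alarmin and antimicrobial genes, 4 were called higher and 0 lower by edgeR (0 lower by DESeq2, 2 by limma-voom, 5 without ALP A, 2 without ALP B). The chemokine gene Cxcl1 rose from 1.24 and 1.997 to 41.3 and 85.3 CPM and Il1a, a cytokine gene, from 1.58 and 3.82 to 38.1 and 70.8 CPM. Slpi, a protease inhibitor gene, rose by 1.103 ± 0.23, while Defb1, a defensin gene, had 54.95 and 17.5 CPM in ALP and 109 and 102 in control and was not called. Of 7 wound and activation genes, 2 were called lower and 0 higher by edgeR (4 lower by limma-voom and without either ALP library, 0 higher by DESeq2 and limma-voom). Sprr2d changed by -1.75 ± 0.30 and Sprr1b by -1.42 ± 0.30. The wound keratin Krt16 had 1017 and 346 CPM in ALP and 2162 and 2059 in control, and Krt6b 207 and 62.1 and 405 and 399, and neither was called (edgeR, adjusted p = 0.0523 and 0.0694).

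Of 15 transcription factor genes of the AP-1, C/EBP and epidermal groups, 1 was called higher and 4 lower (10 lower without ALP A, 6 without ALP B). Fosl1, an AP-1 gene, rose from 2.38 and 2.05 to 11.3 and 24.2 CPM (2.99 ± 0.42). Fosl2, of the same group, changed by -0.85 ± 0.19, Stat3 by -0.75 ± 0.18 (-1.06 without ALP A and -0.49 without ALP B) and Rora by -1.505 ± 0.31. Cebpa, the gene of C/EBP alpha, changed by -1.45 ± 0.38, or by -2.23 without ALP A and -0.94 without ALP B.

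Of 15 differentiation genes of keratinocytes, 5 were called lower and 1, Ivl, higher (13 lower by limma-voom, 14 without either ALP library). Lor (loricrin) changed by -2.56 ± 0.25, Cdsn (corneodesmosin) by -2.05 ± 0.24 and Scel (sciellin) by -3.96 ± 0.65 (-6.55 without ALP A and -3.13 without ALP B), and Sbsn and Flg were also called. Of 8 basal genes, 3 were called higher and 4 lower. The integrin genes Itga3 and Itgb4 rose by 1.78 ± 0.19 and 1.14 ± 0.14, while Krt5 changed by -0.64 ± 0.13, Krt14 by -0.58 ± 0.15 and Col17a1 by -0.78 ± 0.16, and Itga6 and Trp63 were the remaining calls.

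**Figure D5:**
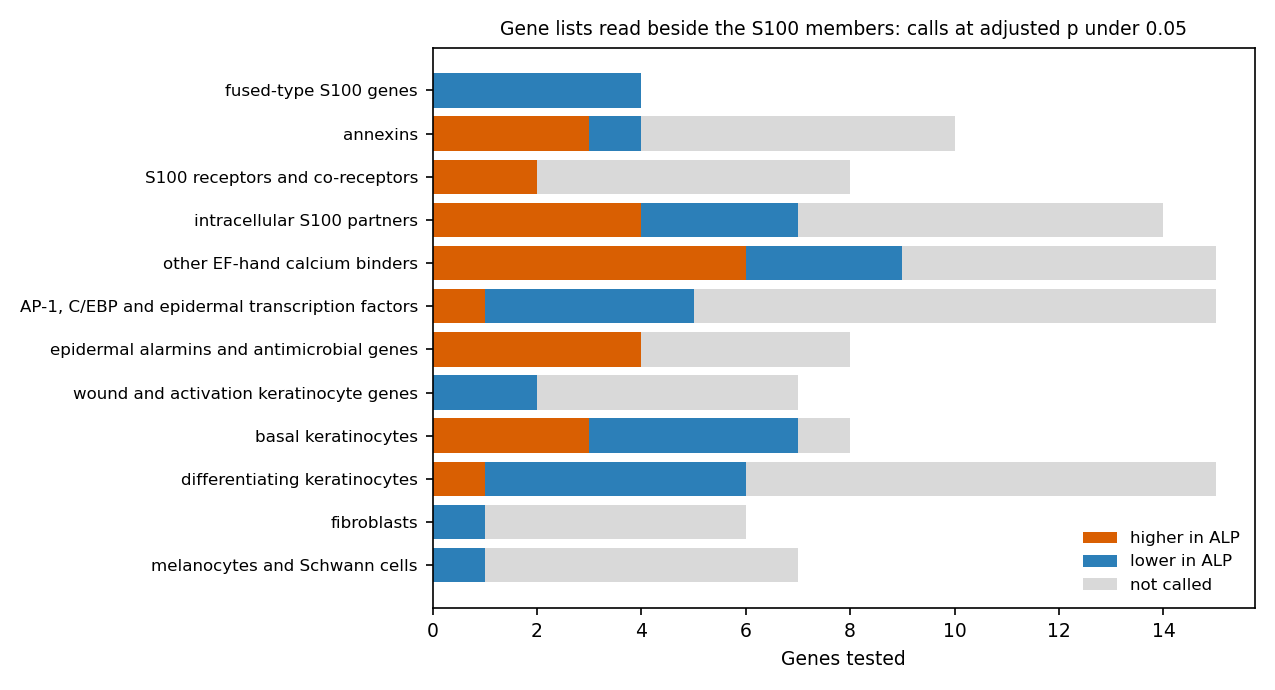
Tested genes of each list read beside the S100 members (lists with at least 4 tested genes), split by edgeR call into higher in ALP, lower in ALP and not called. The bar of the fused-type S100 genes is wholly of lower genes (4 of 4), but Flg, Hrnr and Rptn passed the low-count filter through control alone. The annexins, intracellular partners and other EF-hand genes hold calls in both directions. Of all tested genes 17.7% were called higher and 12.1% lower.

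Markers of other cell types were low beside Krt14, but not all were low beside calprotectin. S100a8 had 5.61 and 4.71 CPM in ALP and 14.1 and 11.8 in control, below the melanocyte and Schwann cell sum in each library. The T cell and Langerhans cell list summed to at most 0.799 CPM in any library, with 4 of 6 genes at 0 counts. Fibroblast markers summed to 4.84 to 8.78 CPM in ALP and 14.3 to 17.9 in control, with Lum at 0 and Dcn called lower (-2.57 ± 0.66, or -4.38 without ALP A and -1.81 without ALP B). Melanocyte and Schwann cell markers summed to 34.5 to 47.6 CPM in ALP and 49.97 to 54.1 in control, of which Mitf was called lower (-1.27 ± 0.19), and Pmel and Dct were not called. Endothelial markers summed to 14.6 to 24.99 CPM in ALP and 6.16 to 7.701 in control, with Kdr and Pecam1 called higher, Tek lower, and Cdh5 at most 0.113 CPM. Their part in the S100 results was not tested.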

How the data were processed

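RNA was sequenced in 2 ALP and 2 control libraries. The authors deposited raw counts per gene, made with HISAT2 2.0.5 and featureCounts 1.5.0-p3 going by the submitters' processing notes. The build named there is the human GRCh38, but the identifiers are of mouse: 54409 of 54532 are in GENCODE M21, and 98.3% of those have its coordinates, hence GRCm38 here. The table also holds a mean signal per group, a log2 fold change and p-values deposited by the authors, which are not used. Column numbers differ from those in the titles, so count columns were assigned to groups only, and 4 further per-library columns (FPKM) were not used. Levels are therefore CPM per kilobase of the deposited gene length, not the FPKM first planned.

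Counts were filtered by filterByExpr (minimum count 10, total 15), scaled by TMM and compared by the two-sided quasi-likelihood test of edgeR 4.0.16 (glmQLFit and glmQLFTest with their defaults, group as the only term) in R 4.3.3, with 2 residual degrees of freedom. Other settings of that fit were also tried while looking for the one that gave the number of calls in earlier text on these data (4350). That was the non-legacy quasi-dispersion, which is reported only as an alternative, as are the others. DESeq2 1.42.0 and limma 3.58.1 (voom) were further alternatives. The fit was tested on simulated data: with counts drawn for the 14056 genes of ALP against control, it called 86% and 72% of genes changed by -2 and 2 on the log2 scale, 49% and 58% of those changed by -1 and 1, and 0.0883% of unchanged genes. In that simulation each gene had the same spread in both groups, and few genes were changed. In the data the ALP libraries differed from each other more than the controls did, and 4188 genes were called. The simulated rates therefore need not hold for the data. A level of 3 counts is 0.172 to 0.190 CPM before scaling.

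The members and the 16 gene lists were chosen with earlier results of these data known. All members and all tested fused-type and other S100 genes are named, and of each other list up to 4 genes with the smallest p-values among those with at least 5 CPM in the higher group, plus Krt14, Krt10, Krt1 and Ptprc; 1 gene under this rule is not reported here. Anxa1, Anxa2, Ahnak, Ager, Tlr4, Cd14, Ppfibp1, Dlc1, Plgrkt, Sdf4, Chp1, Calm4, Cebpa, Ivl, Sbsn, Itga6, Trp63, Tek, Cdh5, Lum, Mpo, Csf3r, Ly6g, Elane, Pglyrp3, Sprr2k and the untested S100 genes were named after their values were seen.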

Additional observations from a re-analysis of the deposited data

How the results depend on the processing

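The 6 called members kept their direction in every alternative run. All 6 were called by DESeq2, by limma-voom and without the low-count filter. They were also called without either ALP library, but there the lone ALP sample is assumed to vary like the controls, which alone give the spread, so this is no test of stability. Leaving out 1 library gave 0 to 7308 genes called (0 to 3750 higher, 0 to 3558 lower), 0 to 7 members (0 to 5 higher, 0 to 2 lower) and 0 to 90 list genes, against 4188, 6 and 54 with all libraries; the low ends are those without a control. S100a1 ranged from -0.57 to 0.23 and Dct from -0.28 to 0.13 with 1 library left out, both changing sign. Of the settings tried after seeing the data, tagwise dispersions gave 6391 genes (3007 lower) and 83 list genes. The non-legacy quasi-dispersion gave 4350 genes and the same 6 members, but 0 genes and 0 members without the filter (7068 genes with an unadjusted p under 0.05) and 0 without control A or B, where S100a1 was 0.14 without control A. Robust quasi-dispersions gave 4314 genes, and a robust dispersion trend, other library sizes and no Poisson bound 4188. The planned FPKM alternatives were not run, since those columns could not be matched to single samples. No paired analysis was possible because the columns carry no replicate numbers of the labels. S100a1, S100a3 and S100a4 had at most 49 counts in any library.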

Other observations

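Of 7 further genes with an S100 symbol, 5 had at most 10 counts in every library (S100a2, S100a5, S100b, S100g and S100z). S100a13, which lies beside S100a1 on the opposite strand, had 50 and 39 counts in ALP and 79 and 72 in control, and its log2 change of -0.66 ± 0.25 was not called (edgeR, adjusted p = 0.0916). S100a7a, a relative of human psoriasin in the block of S100a8 and S100a9, had 15 and 38 counts in ALP and 7 and 3 in control. Its value of 2.503 ± 0.74 was not called by edgeR (adjusted p = 0.0529) but was by DESeq2 (adjusted p = 0.0395), and it was 3.07 without ALP A and 1.597 without ALP B.

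Between S100a9 and S100a11, the 3 genes called higher were Ivl, Pglyrp3 and Sprr2k. Ivl (involucrin) had 7.69 and 10.7 CPM in ALP and 5.03 and 4.68 in control (0.92 ± 0.24). Pglyrp3, which encodes a peptidoglycan recognition protein, had 56.98 and 82.4 CPM in ALP and 21.1 and 29.7 in control (1.45 ± 0.24). Sprr2k had 2.02 and 4.197 CPM in ALP and 0.283 and 0.685 in control (2.66 ± 0.59), and as one of a family of close paralogs its count is uncertain.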
